A study of Mus musculus with 53 samples.

Results

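The 10 genes followed here are switched on by neurons after strong synaptic input: Arc, Homer1, Dusp1, Dusp5, Dusp6, Btg2, Ier2, Ier5, Sik1 and Nptx2. They were chosen by name, with earlier results of these data known. All 10 were found by Ensembl identifier among the 56350 gene identifiers of the central nucleus of the amygdala (CeA) libraries and the 54547 of the medial prefrontal cortex (mPFC) libraries. In neurons, calcium entry and the Ras to ERK kinase cascade phosphorylate the transcription factors CREB, SRF and their partners, which then start transcription of immediate early genes within minutes. Some of these genes encode transcription factors such as Fos and Egr1, while several of the effectors described here act directly at the synapse or on the signal itself. Arc removes AMPA-type glutamate receptors from the synapse, Homer1 scaffolds metabotropic glutamate receptors, Nptx2 (Narp) is a secreted pentraxin that clusters AMPA receptors, and the Dusp phosphatases switch MAP kinases off again.

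The study measured 3′-end RNA in tissue homogenates of C57BL6/J mice at postnatal day 119, in 4 groups per region. Mice of the PLX5622 groups ate a diet with 1200 mg/kg of PLX5622, an inhibitor of the CSF1 receptor that microglia need to survive, from 28 days before the ethanol phase; mice of the control groups ate control diet (0 mg/kg). The labels divide the mice into dependent and non-dependent; their single treatment text, the same for all mice, gives 4 weeks of chronic intermittent ethanol with a choice of bottles (15% ethanol) and killing 24 h after the last ethanol, and does not say how the exposure of non-dependent mice differed. The 53 libraries comprised, in CeA, 4 of PLX5622 dependent, 4 of PLX5622 non-dependent, 5 of control-diet dependent and 6 of control-diet non-dependent mice, and in mPFC 9, 9, 9 and 7 of the same groups in that order. Each library carries a mouse number. Of the 16 numbers found in both regions, 15 have the same diet and history in both and were taken as 1 mouse each; number 16 is a control-diet non-dependent mouse in CeA and a PLX5622 non-dependent mouse in mPFC, and was not paired. As a model the design has limits: PLX5622 in the diet reaches the whole body and not the brain alone, and the homogenate mixes all cell types.

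Gene counts summed to 1062443 to 1968971 per CeA library and 1531574 to 2607438 per mPFC library, so weakly expressed members rest on few counts (Ier2 had 2 to 15 in CeA). In all, 12 libraries, 3 in each of the 4 dependent groups and none of non-dependent mice, held at least 11745 counts of synthetic spike-in RNA, against at most 316 in all other libraries. Values with and without them are given below for some results, not for all. The 16 listed microglia markers summed to 31.4 to 59.2 CPM in CeA and 30.1 to 113.8 CPM in mPFC of PLX5622 dependent mice, against 475 to 627 CPM and 417 to 491 CPM in control-diet dependent mice. The 9 central amygdala neuron markers summed to 756 to 1002 CPM in CeA and 368 to 454 CPM in mPFC libraries, without overlap, and the 9 cortical excitatory neuron markers to 1260 to 1763 CPM in CeA and 1695 to 2490 CPM in mPFC. Among these markers Trem2 and Neurod1 had no count in any library. Levels are TMM-scaled CPM on 1 scale for all 53 libraries, which corrects for library size, and differences are log2 fold changes with their standard errors. Since tissue was homogenized, fewer expressing cells and less RNA per cell cannot be told apart in any value below.

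The members lie on 8 chromosomes (GENCODE M21 annotation of GRCm38): Arc at chr15:74669083-74672570 (reverse strand), Homer1 at chr13:93299635-93405129 (forward strand), Dusp1 at chr17:26505590-26562128 (reverse strand), Dusp5 at chr19:53529109-53542431 (forward strand), Dusp6 at chr10:99263231-99267489 (forward strand), Btg2 at chr1:134075170-134079120 (reverse strand), Ier2 at chr8:84661331-84662852 (reverse strand), Ier5 at chr1:155096361-155099636 (reverse strand), Sik1 at chr17:31844250-31855804 (reverse strand) and Nptx2 at chr5:144545902-144557478 (forward strand). All are protein-coding. The Homer1 count pools 12 annotated transcripts, so the short activity-induced form, known as Homer1a, and the constitutive long forms were not separated. The span of Dusp1 overlaps an exon of Ergic1 and that of Dusp5 an exon of the antisense gene AC137853.2, each on the opposite strand. The sources used here do not say whether counting used strand or how reads in such overlaps were treated, so the counts of Dusp1 and Dusp5 may be affected. Promoters of many activity-induced genes carry binding motifs of CREB (the cAMP response element, TGACGTCA, with its shorter core TGACG) and of SRF (the CArG box). RefSeq (GRCm38.p6) gives promoter sequence, 250 bases before to 50 after the start site, for 6 of the 10 members: Homer1, Dusp1, Dusp5, Dusp6, Btg2 and Ier5. The full element was found in Dusp1 and Btg2 and in 1.79% of all 32851 promoters of the table, both strands searched; each full element also contains the core on both strands, and 20.81% of promoters hold the core. The CArG box was found in Dusp5, at 2 adjacent places, and in 1.629% of promoters. Dusp5 also holds the core on its other strand, and Dusp1 a further core outside its full element, neither marked below. The strings below show these motifs in capitals, each within 30 bases read 5′ to 3′ on the strand of the gene:
Dusp1, chr17:26508597-26508626, reverse strand: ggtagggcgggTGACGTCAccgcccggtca
Btg2, chr1:134079303-134079332, reverse strand: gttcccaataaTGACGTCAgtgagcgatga
Dusp5, chr19:53529053-53529082, forward strand: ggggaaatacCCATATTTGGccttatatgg
Dusp5, chr19:53529063-53529092, forward strand: ccatatttggCCTTATATGGgcactcacgt
Homer1, chr13:93303688-93303717, forward strand: cccccgcacaagcTGACGtgagcggagggt
The Homer1 string is the first of 3 cores found at 1 of its 2 start sites in the table. No motif of these 3 was found in the windows of Dusp6 and Ier5. These matches describe letters in the windows, not binding.

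The first comparison set CeA against mPFC within each group of mice. In at least 2 of the 4 groups, 8 of the 10 effectors were lower in CeA, while Sik1 and Nptx2 did not differ by the test in any group. Arc, which is translated near active synapses, had 18.3, 32.1, 43.5 and 50.9 CPM in CeA of PLX5622 dependent mice, against 71.6 to 155.4 CPM with a median of 107.9 CPM in their mPFC. In control-diet non-dependent mice Arc had 13.6, 16.7, 19.3, 21.7, 24.4 and 43.8 CPM in CeA, against 58.8 to 137.1 CPM with a median of 99.5 CPM in mPFC; the highest CeA library, mouse 19, stayed below every mPFC library. Within each group the 2 regions did not overlap for Arc, though over all libraries they did. The share of all genes apart within a group was not counted, so this non-overlap cannot be called particular to Arc. The log2 differences of Arc were -1.53 ± 0.29 (PLX5622 dependent), -2.42 ± 0.35 (PLX5622 non-dependent), -2.24 ± 0.28 (control-diet dependent) and -1.97 ± 0.28 (control-diet non-dependent), with adjusted p of 2.53e-05, 1.65e-07, 4.14e-09 and 7.01e-08 by edgeR's quasi-likelihood test.

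**Figure D1:**
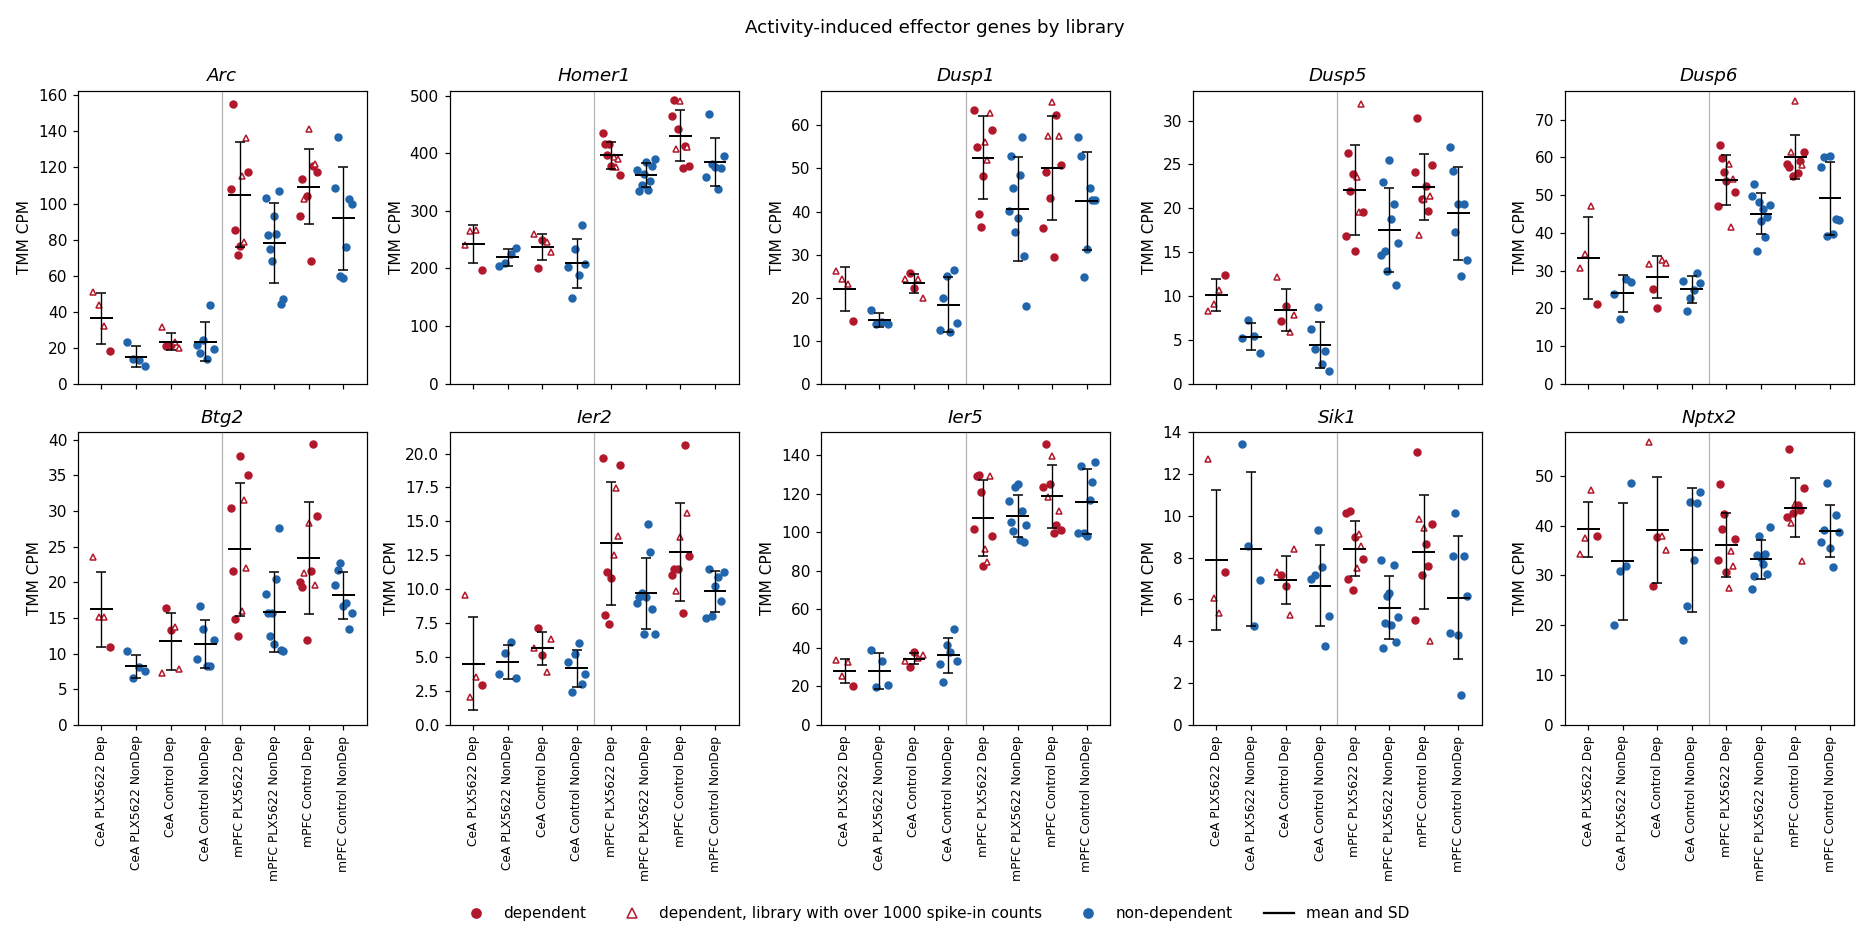
Each panel plots the TMM-scaled CPM of 1 gene in every library (points; open triangles are libraries with over 1000 spike-in counts), by region, diet and history, with the group mean and SD (black). The group means of Arc, Homer1, Dusp1, Dusp5, Dusp6, Ier2 and Ier5 are lower in the 4 CeA groups than in the 4 mPFC groups. Over all libraries the 2 regions overlap for every gene but Homer1 and Ier5.

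Ier5, which in human cells binds heat shock factor and a protein phosphatase, had 20.5, 25.3, 32.9 and 33.8 CPM in CeA and 82.6 to 129.8 CPM with a median of 101.8 CPM in mPFC of PLX5622 dependent mice. Across all mice it ranged over 19.8 to 49.9 CPM (median 33.3, n = 19) in CeA and 82.6 to 145.9 CPM (median 110.95, n = 34) in mPFC, and its log2 differences ran from -1.96 to -1.67. Homer1 likewise kept the regions apart in every library, at 148.3 to 275 CPM (median 228, n = 19) in CeA and 335 to 492 CPM (median 383, n = 34) in mPFC, with smaller log2 differences of -0.71 to -0.87. These were the 2 members whose CeA and mPFC libraries did not overlap at all; 3.73% of the 13035 genes tested across regions were lower in CeA without overlap, and 7.59% were apart in either direction.

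The 3 phosphatases all stood lower in CeA. Dusp5, a nuclear phosphatase specific for ERK, had log2 differences of -1.13 ± 0.24 and -1.72 ± 0.28 in PLX5622 dependent and non-dependent mice and -1.44 ± 0.22 and -2.07 ± 0.26 in control-diet dependent and non-dependent mice. Its CeA level was 10.1 ± 1.83 CPM (SD, n = 4) in PLX5622 dependent and 4.41 ± 2.67 CPM (SD, n = 6) in control-diet non-dependent mice, from 2 to 17 counts per library. Dusp6, the cytoplasmic ERK phosphatase, differed by -1.07 to -0.72, and Dusp1, which also dephosphorylates the stress-activated MAP kinases, by -1.47 to -1.11. Ier2, an immediate early gene for a nuclear protein, differed by -1.42 to -1.05. Btg2, a regulator of mRNA decay and cell division, passed the test in 2 of the 4 groups, at -0.97 ± 0.36 (adjusted p = 0.0276, PLX5622 non-dependent) and -1.01 ± 0.29 (adjusted p = 0.003, control-diet dependent), and not in PLX5622 dependent (-0.58 ± 0.30, adjusted p = 0.12) or control-diet non-dependent mice (-0.69 ± 0.30, adjusted p = 0.0526).

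Sik1, the salt-inducible kinase that phosphorylates CREB coactivators, ranged over 3.78 to 13.4 CPM (median 7.15, n = 19) in CeA and 1.42 to 13.1 CPM (median 7.57, n = 34) in mPFC. Its log2 differences were -0.03 ± 0.28, 0.54 ± 0.29, -0.23 ± 0.26 and 0.13 ± 0.28 in PLX5622 dependent, PLX5622 non-dependent, control-diet dependent and control-diet non-dependent mice. Nptx2 gave 0.10 ± 0.18, -0.004 ± 0.18, -0.17 ± 0.15 and -0.14 ± 0.16 in the same groups. None of these 8 values passed the adjusted test, which does not show that the regions are alike: the errors are larger for Sik1, which had at most 25 counts in a library.

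**Figure D2:**
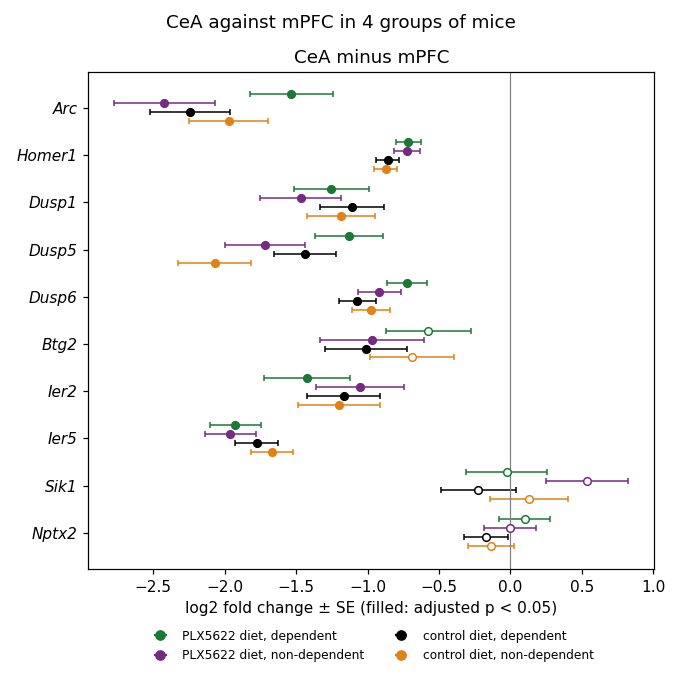
Log2 fold change, CeA minus mPFC (x axis), of each effector gene (rows) in 4 groups of mice (colours), with bars of 1 standard error and filled points for an adjusted p under 0.05. Arc lies furthest left at -2.42 in PLX5622 non-dependent mice, and Sik1 and Nptx2 lie around 0 in all 4 groups.

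In counts, 7 of 10 members passed the test in PLX5622 dependent, 8 in PLX5622 non-dependent, 8 in control-diet dependent and 7 in control-diet non-dependent mice, all lower in CeA. The background is large: 40.2%, 43.6%, 46.6% and 46.4% of all 13035 genes passed in those groups in either direction, and 20.2%, 22.1%, 23.4% and 23.2% were lower in CeA. The members' median log2 differences were -0.93, -1.01, -1.09 and -1.08, against -0.009 to 0.003 for all genes. With the mouse as a block, over the 15 mice with both regions, 7, 8, 8 and 8 members passed. Btg2 then passed in control-diet non-dependent mice (-1.16 ± 0.26, adjusted p = 0.000525), while 3983 genes passed in that group in place of 6047. Only mice 17, 19 and 20 of that group have both regions, so the block and the smaller set of libraries changed together. Leaving out 1 CeA library at a time, Btg2 also passed in control-diet non-dependent mice without control-diet non-dependent mouse 15 or PLX5622 dependent mouse 6, and was lost in PLX5622 non-dependent mice without mouse 23, 46 or 47 of that group; Sik1 passed in that group, higher in CeA, without mouse 46. Without the libraries rich in spike-in RNA, 3 of these calls were lost: Dusp5 in PLX5622 dependent mice (-0.75 ± 0.43, adjusted p = 0.235, with 1 CeA library left), and Btg2 (-0.68 ± 0.43, adjusted p = 0.254) and Dusp1 (-0.92 ± 0.38, adjusted p = 0.0657) in control-diet dependent mice. Region cannot be told apart from the sequencing instrument (NovaSeq for CeA, HiSeq for mPFC) or from the dissection (punches of frozen slices for CeA, fresh tissue for mPFC). Nor can it be told apart from the annotation used for counting, which differed between regions (56350 gene identifiers in CeA, 54547 in mPFC). The part of these in any gene's difference, also those of the related genes below, was not tested.

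Among genes of the same programme, 16 of 20 immediate early transcription factors were tested across regions. In control-diet non-dependent mice 8 were lower and 2 higher in CeA; Srf, which encodes the CArG-binding factor, was lower by a log2 difference of -3.22 ± 0.20, Nr4a1 by -1.48 ± 0.18 and Egr1 by -0.84 ± 0.11, while Jun was higher. Of 25 tested other activity-induced genes 15 were lower and 5 higher in those mice, including Gadd45b at -1.72 ± 0.23 and Rgs4 at -0.82 ± 0.09. Among the other MAP kinase phosphatases and ERK feedback inhibitors 6 of 13 were lower, such as Spry2 (-1.05 ± 0.10) and Dusp14 (-1.13 ± 0.10), and Dusp8 was higher (0.93 ± 0.07). The ERK cascade itself split, with 7 of 19 lower (Rps6ka3, -0.66 ± 0.08) and 6 higher (Mapk3, which encodes ERK1, 0.54 ± 0.08). Of the members' paralogs and partners 13 of 32 were higher and 10 lower. Cell-type markers moved with region too: 7 of 8 tested cortical excitatory markers were lower (median -1.12) and 11 of 11 oligodendrocyte markers higher (median 0.96) in CeA of those mice. Over all libraries the oligodendrocyte genes summed to 1902 to 4647 CPM in CeA and 1133 to 2299 CPM in mPFC with none at 0. The meninges and choroid plexus genes summed to 273 to 4696 CPM in CeA and 170 to 671 CPM in mPFC. For the striatal neuron genes the sums were 886 to 3508 CPM in CeA and 696 to 1931 CPM in mPFC. The part of these markers in the members' differences was not tested.

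Dependence was compared next, first in mPFC. Averaged over the diets, every member lay above 0 and 9 of 10, all but Ier5, had an unadjusted p under 0.05; 1 of them, Dusp6, rose by the adjusted test. Of the 12331 genes tested 0.219% passed the adjusted test (27 genes, 19 of them higher, 0.154%), and 9.24% had an unadjusted p under 0.05 (4.83% higher). The members' median was 0.29, against -0.0008 for all genes, of which 49.5% lay above 0.

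Dusp6 had 41.5 to 63.4 CPM with a median of 54.4 CPM in PLX5622 dependent mice (n = 9), against 35.2 to 52.8 CPM with a median of 46.3 CPM in PLX5622 non-dependent mice (n = 9). On the control diet it had 55.1 to 74.9 CPM with a median of 58.2 CPM in dependent mice (n = 9), against 39.2 to 60.4 CPM with a median of 43.6 CPM in non-dependent mice (n = 7). The groups overlapped on both diets, and 17 of 18 dependent libraries lay above the median of the non-dependent ones. The averaged log2 difference was 0.27 ± 0.06 (edgeR's quasi-likelihood test, adjusted p = 0.0271), with 0.25 ± 0.08 on PLX5622 (adjusted p = 0.634) and 0.29 ± 0.09 on control diet (adjusted p = 0.567). The size held without the spike-in-rich libraries (0.27 ± 0.07), where the adjusted p was 0.0558. The test was passed in 27 of 34 fits that left out 1 library, with adjusted p of 0.00642 to 0.0846 over all 34; the call was lost without control-diet non-dependent mice 20, 34, 35 or 36, PLX5622 non-dependent mouse 23, control-diet dependent mouse 10 or PLX5622 dependent mouse 7.

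Homer1 came next by p. It had 362 to 492 CPM (median 409, n = 18) in dependent mice, against 335 to 468 CPM (median 373, n = 16) in non-dependent mice, with 17 of 18 dependent libraries above the non-dependent median. Its averaged log2 difference was 0.14 ± 0.04 (adjusted p = 0.0878 by edgeR), and it passed in 3 of 34 fits without 1 library, those without control-diet non-dependent mouse 19 and control-diet dependent mice 11 or 28. Long and short transcripts are pooled in this value.

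Larger log2 differences with larger errors, none past the adjusted test, were found for Btg2, Sik1, Ier2, Arc, Dusp1 and Dusp5. Btg2 had 11.97 to 39.5 CPM (median 21.7, n = 18) in dependent mice, against 10.3 to 27.6 CPM (median 16.2, n = 16) in non-dependent mice, a log2 difference of 0.49 ± 0.16 (adjusted p = 0.31). Sik1 had 4.01 to 13.1 CPM (median 8.60, n = 18) in dependent mice, against 1.42 to 10.1 CPM (median 5.65, n = 16) in non-dependent mice, a log2 difference of 0.48 ± 0.15 (adjusted p = 0.236). On PLX5622 all 9 dependent Sik1 libraries lay above the median of the 9 non-dependent ones. Arc had 68.0 to 155.4 CPM (median 110.7, n = 18) in dependent mice, against 44.2 to 137.1 CPM (median 82.8, n = 16) in non-dependent mice. Dusp1 had 29.5 to 65.4 CPM (median 53.4, n = 18) in dependent mice, against 18.1 to 57.4 CPM (median 42.7, n = 16) in non-dependent mice. In both, the highest and lowest libraries of the histories overlap widely. The log2 difference of Ier2 was 0.41 ± 0.13, that of Arc 0.33 ± 0.13, Dusp1 0.30 ± 0.13, Dusp5 0.26 ± 0.11 and Nptx2 0.14 ± 0.07, with adjusted p from 0.22 to 0.51. Ier5 gave 0.01 ± 0.07 (adjusted p = 0.991), with dependent and non-dependent libraries at 82.6 to 145.9 CPM (median 114.7, n = 18) and 94.9 to 136.7 CPM (median 108.3, n = 16). Without the spike-in-rich libraries Dusp1 stood at 0.20 ± 0.15, Arc at 0.27 ± 0.15 and Nptx2 at 0.23 ± 0.07.

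**Figure D3:**
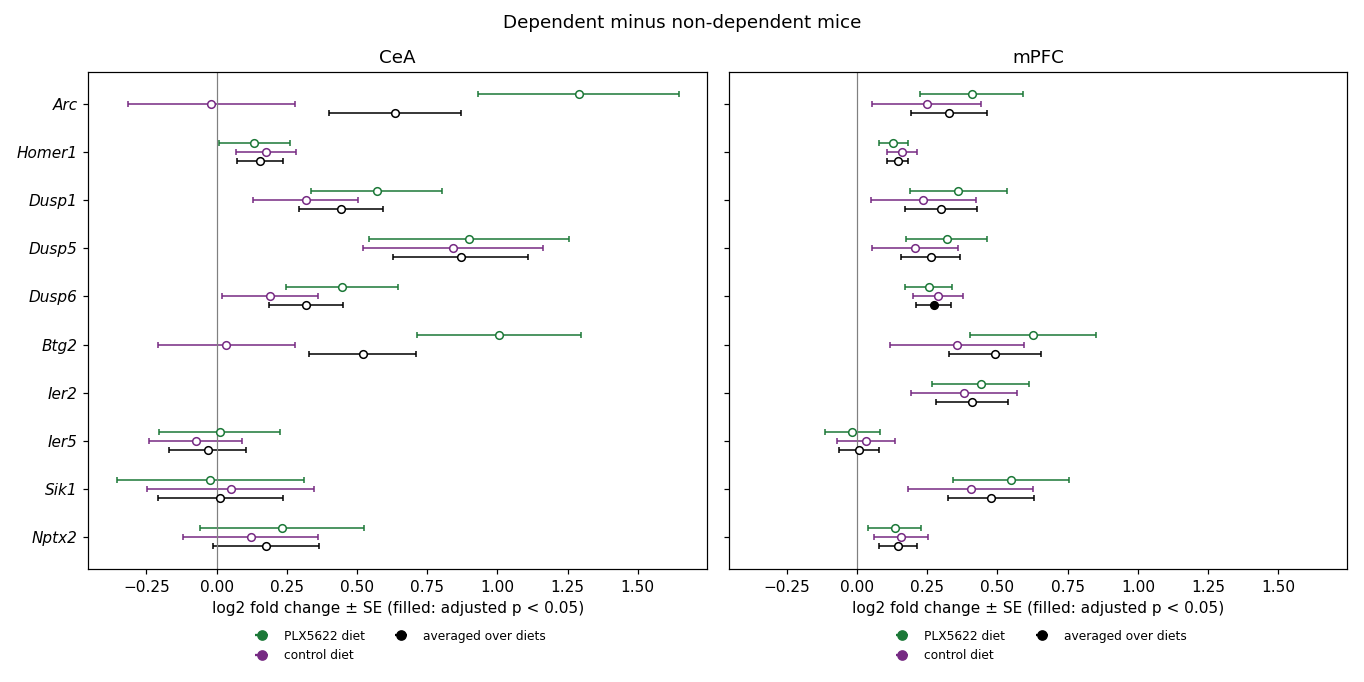
Log2 fold change, dependent minus non-dependent mice (x axis), of each effector gene (rows) in CeA (left) and mPFC (right) on the PLX5622 diet, on the control diet and averaged over both, with bars of 1 standard error and filled points for an adjusted p under 0.05. In mPFC the averages lie at or above 0 for all 10 genes and the one filled point is Dusp6 (0.27); in CeA the PLX5622 value of Arc (1.29) lies far from its control-diet value (-0.02). Ier2 was not tested in CeA.

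On each diet alone no member passed the adjusted test in mPFC (by edgeR, 0% of all genes passed on PLX5622, with 728 at an unadjusted p under 0.05, and 0.00811% on control diet). With PLX5622, 9 of 10 members lay above 0 and 8 had an unadjusted p under 0.05 (5.90% of all genes had, 3.13% upward); on control diet 10 of 10 lay above 0 and 3, Homer1, Dusp6 and Ier2, had an unadjusted p under 0.05 (5.89% of all genes, 3.06% upward). Btg2 stood at 0.63 ± 0.22 on PLX5622 and 0.35 ± 0.24 on control diet, and Arc at 0.41 ± 0.18 and 0.25 ± 0.19. The difference between the diets, tested as an interaction, passed for no gene (0%, with 354 genes, 2.87%, at an unadjusted p under 0.05) and no member had an unadjusted p under 0.05 there; the largest member value was Btg2 at 0.27 ± 0.33. A difference between diets within these errors cannot be seen here.

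Among 16 tested transcription factors of the same programme 2 rose in mPFC. Jun, an AP-1 subunit, rose in dependent mice by 0.41 ± 0.07 averaged over diets (adjusted p = 0.000925) and by 0.55 ± 0.10 on control diet (adjusted p = 0.0117), and Egr4, a zinc-finger factor, rose by 0.25 ± 0.05 (adjusted p = 0.0169). The control-diet call of Jun was lost without the spike-in-rich libraries (adjusted p = 0.0712) and without control-diet non-dependent mice 19, 20, 34 or 35 or control-diet dependent mouse 26. Both averaged calls stood in all 34 fits without 1 library and without the spike-in-rich libraries (adjusted p = 0.00463 and 0.0153). In all, 13 of these 16 lay above 0, 6 with an unadjusted p under 0.05, at a median of 0.21. No other gene list held a call: 19 of 25 other activity-induced genes lay above 0 (8 with an unadjusted p under 0.05, median 0.09), 11 of 13 other phosphatases and feedback inhibitors (2, median 0.05) 7 of 19 ERK cascade genes (2, median -0.01) and 19 of 31 paralogs and partners of the members (6, median 0.03). The lowest p in the first 3 of these lists belonged to Vgf (0.16 ± 0.04), Spry2 (0.13 ± 0.05) and Araf (0.08 ± 0.03), with adjusted p of 0.0844, 0.408 and 0.368. Of the markers, 9 of 9 tested striatal neuron genes lay above 0 (median 0.35, none called), summing to 696 to 1931 CPM and 703 to 1415 CPM in PLX5622 and control-diet dependent mice, against 744 to 1261 CPM and 717 to 1007 CPM in PLX5622 and control-diet non-dependent mice, with no listed gene at 0. For glucocorticoid response genes 10 of 12 tested lay above 0 (median 0.15, none called); the 14 listed summed to 669.6 to 1062 CPM and 703 to 957 CPM in PLX5622 and control-diet dependent mice, against 694 to 868 CPM and 638 to 859 CPM in PLX5622 and control-diet non-dependent mice, overlapping on both diets, with Arrdc2 at 0. For oligodendrocytes 10 of 11 genes lay above 0 (median 0.11) and 7 of 8 cortical excitatory genes below 0 (median -0.05). The part of these lists in the members' values was not tested.

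In CeA no member passed the adjusted test for dependence, on either diet or averaged; 0.0171% of 11721 genes passed on PLX5622, 0.00853% on control diet and 0.0256% in the average. Of the members 9 were tested, since Ier2 did not reach the minimum count. On PLX5622, 5 of the 9, Arc, Btg2, Dusp5, Dusp1 and Dusp6, had an unadjusted p under 0.05, all higher in dependent mice (5.95% of all genes had, 2.93% upward). On control diet Dusp5 alone did (6.11%, 3.74% upward), and in the average the 5 named did (7.21%, 3.85% upward). The averaged log2 difference of Arc was 0.64 ± 0.23 (adjusted p = 0.53 by edgeR). Over both diets, Arc averaged 33.5, 20.1 and 19.9 CPM in spike-in-rich dependent, other dependent and non-dependent libraries. In the same order Dusp6 averaged 34.8, 22.1 and 24.6 CPM and Dusp1 23.7, 20.8 and 16.9 CPM. Btg2 averaged 13.8, 13.6 and 10.1 CPM, and Dusp5 9.00, 9.48 and 4.78 CPM.

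Arc had 18.3, 32.1, 43.5 and 50.9 CPM in the 4 PLX5622 dependent mice, against 9.71, 12.9, 13.8 and 23.1 CPM in the 4 PLX5622 non-dependent mice. The 3 highest dependent values are the 3 libraries rich in spike-in RNA (mice 6, 7 and 8), and the lowest, mouse 29, lies inside the non-dependent range. On control diet Arc had 20.0, 20.7, 21.4, 22.9 and 31.7 CPM in dependent mice, against 13.6, 16.7, 19.3, 21.7, 24.4 and 43.8 CPM in non-dependent mice, with full overlap. The log2 differences were 1.29 ± 0.36 on PLX5622 (adjusted p = 0.615) and -0.02 ± 0.30 on control diet (adjusted p = 0.996). Without the spike-in-rich libraries, which leaves mouse 29 alone in its group and so assumes that it varies like the other groups, the PLX5622 value of Arc was 0.31 ± 0.55 (adjusted p = 0.995). With no filter on low counts Arc passed on PLX5622 (1.29 ± 0.24, adjusted p = 0.00271), with the same log2 difference and a smaller error. In that fit 10 genes passed in place of 2, and it included the spike-in-rich libraries.

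Btg2 again had its lowest PLX5622 dependent value in mouse 29. It had 11.0, 15.1, 15.2 and 23.6 CPM in PLX5622 dependent mice, against 6.59, 7.63, 8.15 and 10.4 CPM in PLX5622 non-dependent mice, without overlap. The control-diet groups overlapped, at 7.31, 7.88, 13.3, 13.7 and 16.4 CPM in dependent mice and 8.28, 8.31, 9.31, 11.9, 13.4 and 16.7 CPM in non-dependent mice. Log2 differences were 1.01 ± 0.29 on PLX5622 (adjusted p = 0.615) and 0.03 ± 0.24 on control diet (adjusted p = 0.991); the PLX5622 value was 0.42 ± 0.45 without the spike-in-rich libraries.

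Dusp5, by contrast, stood higher in dependent mice by a like amount on both diets, without passing the test. It had 8.28, 9.11, 10.7 and 12.4 CPM in PLX5622 dependent mice, against 3.47, 5.22, 5.43 and 7.25 CPM in PLX5622 non-dependent mice, again without overlap, and here the highest dependent value is mouse 29, the one library of that group with under 1000 spike-in counts. On control diet it had 5.89, 7.15, 7.88, 8.87 and 12.2 CPM in dependent mice, against 1.49, 2.26, 3.78, 3.99, 6.21 and 8.73 CPM in non-dependent mice. The log2 differences were 0.90 ± 0.36 on PLX5622 (adjusted p = 0.743) and 0.84 ± 0.32 on control diet (adjusted p = 0.695), and 0.87 ± 0.24 averaged (adjusted p = 0.23 by edgeR). Btg2 and Dusp5 were the 2 members without overlap between the PLX5622 groups; of 11676 genes 1.97% were higher in dependent mice without overlap and 3.72% were apart in either direction.

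Dusp1 had 14.6, 23.2, 24.3 and 26.1 CPM in PLX5622 dependent mice, against 13.8, 13.9, 14.3 and 17.1 CPM in PLX5622 non-dependent mice. Its lowest dependent value is again mouse 29, the only library of that group with under 1000 spike-in counts, inside the non-dependent range. On control diet Dusp1 had 20.0, 22.2, 24.2, 24.4 and 25.7 CPM in dependent mice, against 12.05, 12.4, 14.1, 19.9, 25.03 and 26.4 CPM in non-dependent mice, which spread on both sides of them. Its log2 differences were 0.57 ± 0.23 on PLX5622 and 0.32 ± 0.19 on control diet, and Dusp6 0.45 ± 0.20 and 0.19 ± 0.17. For Dusp6 the averaged value was 0.32 ± 0.13 with all libraries and -0.16 ± 0.19 without those rich in spike-in RNA, and the direction turned: the 6 rich libraries of dependent mice ranged over 30.6 to 47.2 CPM and the 3 others over 20.0 to 25.01 CPM, against 17.1 to 29.5 CPM (median 25.8, n = 10) in non-dependent mice. Homer1 had 197.3, 241, 265 and 266 CPM in PLX5622 dependent mice, against 205, 210.3, 225 and 236 CPM in PLX5622 non-dependent mice, and 202, 228, 246, 249.9 and 259.8 CPM in control-diet dependent mice, against 148.3, 189.0, 202, 207, 233 and 275 CPM in control-diet non-dependent mice; the groups overlapped on both diets. Its log2 differences were 0.13 ± 0.12 and 0.18 ± 0.11 on PLX5622 and control diet. Over both diets Homer1 averaged 251 CPM in the 6 spike-in-rich dependent libraries, 216 CPM in the 3 other dependent ones and 213 CPM in non-dependent mice. Nptx2 gave 0.23 ± 0.29 and 0.12 ± 0.24, Ier5 0.01 ± 0.22 and -0.07 ± 0.17, and Sik1 -0.02 ± 0.33 and 0.05 ± 0.30 on PLX5622 and control diet. Spike-in content goes with dependence in these samples, so only 3 dependent libraries of CeA hold under 1000 spike-in counts.

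The interaction, the dependence difference on PLX5622 minus that on control diet, was 1.31 ± 0.47 for Arc (adjusted p = 0.993) and 0.97 ± 0.38 for Btg2 (adjusted p = 0.993). Both members had an unadjusted p under 0.05 there. No gene passed the adjusted test in CeA (0% by edgeR's test, with 535 genes, 4.56%, at an unadjusted p under 0.05), and the 7 other members gave -0.07 to 0.26. Without the spike-in-rich libraries the values were 0.45 ± 0.66 for Arc and 0.04 ± 0.51 for Btg2. A difference between the diets was not shown for any member.

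Fos, the AP-1 partner of Jun, was the one transcription factor of 15 tested to rise with dependence in CeA, by 1.14 ± 0.21 on PLX5622 (adjusted p = 0.0443) and 0.79 ± 0.14 averaged (adjusted p = 0.00884). These calls were lost without the spike-in-rich libraries (0.34 ± 0.34 and 0.38 ± 0.21), and the PLX5622 call stood in 7 of 19 fits without 1 library and the averaged one in 18 of 19, the exception being without PLX5622 dependent mouse 6. On PLX5622, 18 of 24 other activity-induced genes, 9 of 12 other phosphatases and feedback inhibitors, 11 of 19 ERK cascade genes and 18 of 31 paralogs and partners lay above 0, with none called and medians of 0.14, 0.18, 0.01 and 0.04. Tissue markers also stood at different levels. The 10 meninges and choroid plexus genes summed to 713 to 2387 CPM in PLX5622 dependent mice and 1791 to 4696 CPM in PLX5622 non-dependent mice, and 7 of 8 tested lay below 0 (median -0.95). The 11 striatal neuron genes summed to 1315 to 1849 CPM in PLX5622 dependent and 886 to 1314 CPM in PLX5622 non-dependent mice, and 10 of 10 tested lay above 0 (median 0.58). The 9 central amygdala neuron genes summed to 926 to 1002 CPM in PLX5622 dependent and 807 to 887 CPM in PLX5622 non-dependent mice, without overlap, and 6 of 9 lay above 0 (median 0.21). No listed gene of these 3 lists was at 0 in these groups, none was called, and their part in the members' values was not tested. On control diet 11 of 11 tested glucocorticoid response genes lay above 0 (median 0.41, none called).

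The PLX5622 and control diets were compared last. No member passed the adjusted test in any of the 6 diet comparisons, which called 0.401% (dependent), 0.938% (non-dependent) and 0.896% (averaged) of all genes in CeA and 0.908%, 0.624% and 1.14% in mPFC. All 15 tested microglia markers fell in each. These comparisons share libraries with those of dependence, so their values are set side by side and not as separate evidence.

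Nptx2 came nearest in mPFC. It had 27.6 to 48.3 CPM with a median of 34.9 CPM in PLX5622 dependent mice, against 33.0 to 55.4 CPM with a median of 43.0 CPM in control-diet dependent mice. In non-dependent mice it had 27.4 to 39.7 CPM with a median of 33.4 CPM on PLX5622, against 31.8 to 48.5 CPM with a median of 38.8 CPM on control diet. The groups overlapped in both histories, with log2 differences of -0.26 ± 0.09 in dependent and -0.24 ± 0.10 in non-dependent mice and -0.25 ± 0.07 averaged (adjusted p = 0.0504 by edgeR). The averaged value passed with RLE scaling (adjusted p = 0.0483), with no filter on low counts (adjusted p = 0.0132) and in 9 of 34 fits without 1 library (PLX5622 dependent mice 7, 8 and 29, PLX5622 non-dependent mice 22 and 47, control-diet dependent mice 4 and 27, and control-diet non-dependent mice 33 and 34), and not by DESeq2 (adjusted p = 0.0714) or without the spike-in-rich libraries (adjusted p = 0.113). The value stayed between -0.28 and -0.21 in the fits without 1 library. In CeA the averaged value of Nptx2 was -0.05 ± 0.19.

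**Figure D4:**
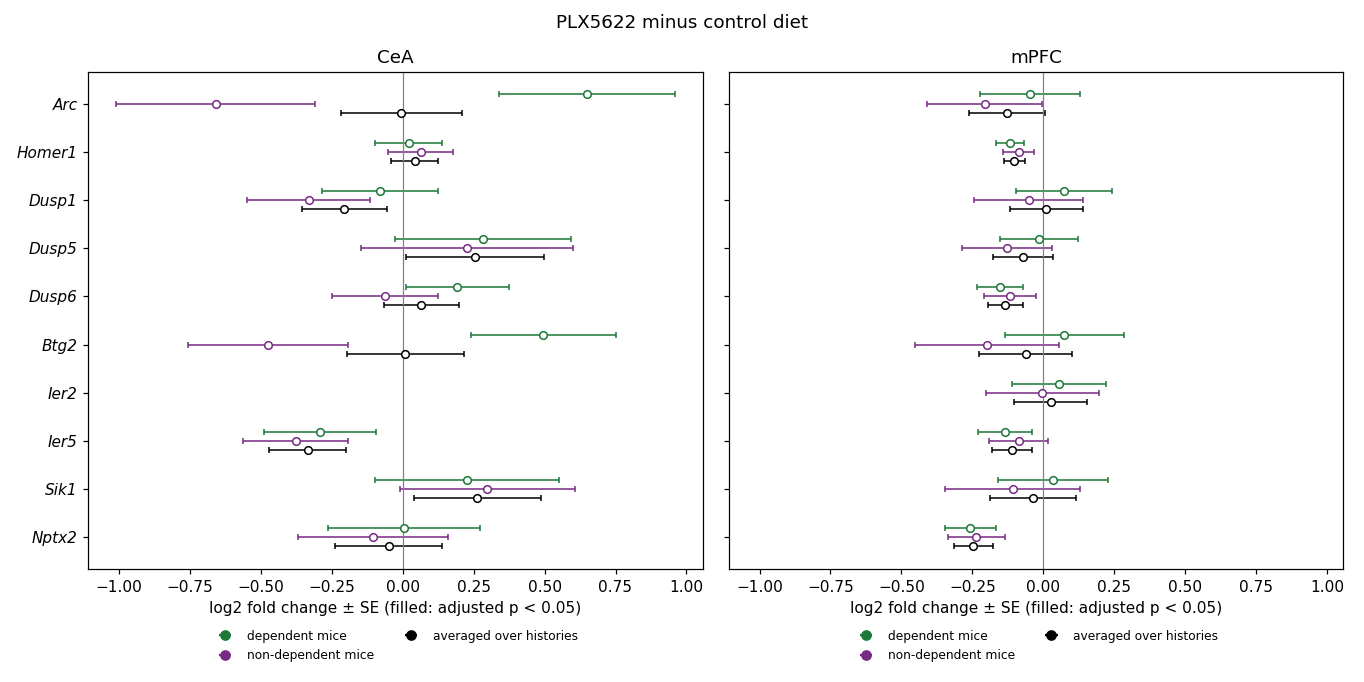
Log2 fold change, PLX5622 minus control diet (x axis), of each effector gene (rows) in CeA (left) and mPFC (right), in dependent mice, in non-dependent mice and averaged, with bars of 1 standard error; no point is filled, as none had an adjusted p under 0.05. Nptx2 in mPFC (-0.25 averaged) lies left of 0 in both histories, and Arc in CeA lies on opposite sides of 0 in dependent (0.65) and non-dependent mice (-0.66).

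Homer1 and Dusp6 also had unadjusted p under 0.05 in the averaged mPFC comparison, at -0.10 ± 0.04 and -0.13 ± 0.06 (adjusted p = 0.334 and 0.592), where 7.74% of all genes had (4.05% downward). The other 7 members stood between -0.13 and 0.03. From the other lists 2 genes passed there. Vgf, an activity-induced secreted neuropeptide precursor, fell by 0.20 on the log2 scale (adjusted p = 0.00183), in all 34 fits without 1 library, and Rps6ka1, an ERK-activated kinase, fell by 0.55 (adjusted p = 0.0449), in 13 of them and not by DESeq2 (adjusted p = 0.0633) or without the spike-in-rich libraries (adjusted p = 0.0869). In dependent mice alone Map2k1, which encodes the ERK kinase MEK1, rose by 0.15 ± 0.04 (adjusted p = 0.0381), a call that stood in 23 of 34 such fits and was lost with no filter on low counts, in a fit of the 2 groups alone and without the spike-in-rich libraries.

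In CeA, Arc stood at 0.65 ± 0.31 in dependent mice (adjusted p = 0.918) and -0.66 ± 0.35 in non-dependent mice (adjusted p = 0.62), and Btg2 at 0.50 ± 0.26 and -0.48 ± 0.28. The difference between those values is the interaction given above. Ier5 was the one member with an unadjusted p under 0.05 in the averaged CeA comparison (-0.33 ± 0.14, adjusted p = 0.382; 9.32% of all genes had, 4.74% downward). It had 20.5, 25.3, 32.9 and 33.8 CPM in PLX5622 dependent mice, against 30.0, 33.3, 34.7, 36.2 and 37.7 CPM in control-diet dependent mice. Striatal and oligodendrocyte markers stood lower on PLX5622 in CeA: 10 of 10 and 11 of 11 tested lay below 0 in the average, with medians of -0.64 and -0.38, none called and no listed gene at 0. The striatal genes summed to 1315 to 1849 CPM in PLX5622 dependent mice, against 1283 to 2950.0 CPM in control-diet dependent mice, and to 886 to 1314 CPM in PLX5622 non-dependent mice, against 907 to 3508 CPM in control-diet non-dependent mice. The oligodendrocyte genes summed to 2379.6 to 3517 CPM, against 2706 to 4647 CPM, and to 1902 to 3668 CPM, against 2532 to 3819 CPM, in the same pairs of groups. Their part in the members' values was not tested.

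The members were also compared with Arc across libraries, as deviations from the group means of log2(CPM + 1), so that group differences do not enter. In mPFC (34 libraries) Dusp1 tracked Arc most closely of all 11673 genes ranked, with Pearson's r of 0.803 and Spearman's rho of 0.720 (permutation p of r = 1e-05, the smallest the 100000 permutations can give, adjusted p = 0.00018 over the 18 relations computed; r = 0.780 without the 2 libraries with the most distant Arc values). Ier5 (r = 0.457, rho = 0.437, adjusted p = 0.0227) and Dusp5 (r = 0.452, rho = 0.450, adjusted p = 0.0227) followed, while Homer1 (r = 0.190), Sik1 (0.187) and Nptx2 (-0.0798) did not pass; the median of all genes was 0.0015. Depth, dissection and RNA handling can also vary between libraries, and their part in these correlations was not tested.

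**Figure D5:**
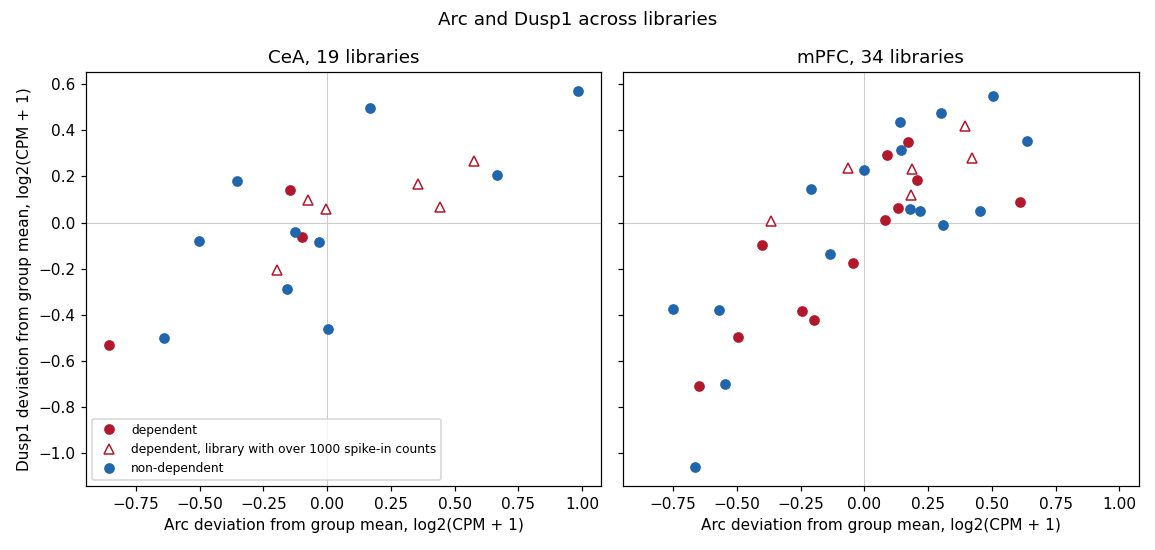
Deviation of Dusp1 (y axis) against that of Arc (x axis) from their group means, in log2(CPM + 1), for each CeA library (left, r = 0.738) and each mPFC library (right, r = 0.803); open triangles are libraries with over 1000 spike-in counts. In both regions libraries high in Arc are mostly high in Dusp1.

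In CeA (19 libraries) Dusp1 (r = 0.738, rho = 0.70, adjusted p = 0.00306), Ier5 (r = 0.632, rho = 0.535, adjusted p = 0.0208) and Homer1 (r = 0.596, rho = 0.551, adjusted p = 0.0227) varied with Arc by r, and Dusp1 alone by rho as well (adjusted p = 0.00999); without the 2 most distant Arc values their r were 0.568, 0.474 and 0.316, so that of Homer1 rests on those 2. Without the spike-in-rich libraries none of the CeA relations passed (adjusted p = 0.0768 for Dusp1, r = 0.674, 13 libraries), and in mPFC that of Dusp1 alone did (r = 0.811, 28 libraries). Btg2 did not follow Arc in CeA (r = 0.149). The non-members most like Arc in mPFC were Per1 (r = 0.730), Cyp51 (0.716), Trib1 (0.671), Junb (0.669) and Hes1 (0.666), and in CeA Efnb2 (0.829), Ccnyl1 (0.817), Kdm3a (0.787), Rps6kc1 (0.785) and Vcl (0.774). Dusp1 ranked 10 of 11682 genes in CeA.

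For the 15 mice with both regions, deviations in CeA and mPFC were set against each other for each member. Arc had r = 0.619 and rho = 0.611 (permutation p = 0.0146 and 0.0177, adjusted p = 0.0897 and 0.177 over 10 members), and r = 0.509 without the 2 most distant mice. Homer1 had r = 0.604 and rho = 0.518 (adjusted p = 0.0897 and 0.212). That of Ier2 (r = 0.579) rests on 2 mice, with r = -0.0547 without them. No member passed after adjustment, and Ier5 was at r = 0.0355. These correlations between regions were not repeated without the spike-in-rich libraries.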

How the data were processed

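RNA of mPFC and CeA homogenates was sequenced with a bias to the 3′ UTR, per the series' own description; the submitters' processing notes name the builds mm10 and GRCm38.p6 and, without their roles, HTSeq (0.11.0), Bowtie2 (2.3.4.3), R (3.5.1), DESeq2 (1.10.1) and FastQC (0.11.8). The deposited files hold raw counts per Ensembl gene, 1 file per library; 92 spike-in and 5 summary entries per file were left out of library sizes and tests. Identifiers were matched to symbols with GENCODE M21.

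edgeR 4.0.16 (R 4.3.3) was fitted with TMM scaling, a filter on low counts (filterByExpr, minimum count 10, minimum total 15), 1 coefficient per group and the quasi-likelihood test, separately for each region and jointly for the comparison of regions. P-values were adjusted over all genes tested (Benjamini-Hochberg, threshold 0.05). Printed CPM come from the joint fit and lie within a ratio of 0.981 to 1.029 of each region's own scale. The pipeline was tested on simulated data. Correlations used log2(CPM + 1) and 100000 permutations (10000 under the alternatives), two-sided. Named genes of a list come from the up to 4 with the lowest p among those that passed in a comparison, or are the 1 with the lowest p where none passed (1 such gene is not reported here); genes most like Arc are the first 5 non-members by r with a mean of at least 5 CPM. The members, lists and tests were chosen with earlier results of these data known. Libraries of the 2 regions were paired by the same number, diet and history, since the labels' protocols take both regions from each brain; number 16, which has another diet in each region, was not paired. Within a region numbers pair nothing. Replicates are single mice. Alternatives were RLE scaling, DESeq2 1.42.0, no filter beyond 1 count in all libraries, other pseudocounts (0.25 and 5), fits of the 2 groups compared, the mouse as a block, and leaving out each library or the 12 libraries with over 1000 spike-in counts.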

Additional observations from a re-analysis of the deposited data

Results flagged for a closer look

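Among 80 sets of 1 gene in 1 group, 4 held a library far from the rest of its group; chance flags about 1 in 20 such sets. Arc in CeA of control-diet non-dependent mouse 19 was at 43.8 CPM, against 13.6 to 24.4 CPM in the other 5 mice. Arc in CeA of control-diet dependent mouse 1, a library rich in spike-in RNA, was at 31.7 CPM, against 20.0 to 22.9 CPM in the other 4. Dusp1 in CeA of PLX5622 non-dependent mouse 13 was at 17.1 CPM, against 13.8 to 14.3 CPM in the other 3. Dusp6 in mPFC of control-diet dependent mouse 10, also a library rich in spike-in RNA, was at 74.9 CPM, against 55.1 to 61.5 CPM in the other 8. Spike-in RNA itself, which no comparison uses, was present in 12 libraries at 11745 counts or more, all from dependent mice, and at 316 or fewer in every other library.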

How the results depend on the processing

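Of 7512 values of single genes under the alternatives, 7359 kept their side of the threshold, 23 gained a call, 78 lost one, 52 moved by more than their spread and 0 reversed a call. Direction was checked for called values only, so a small uncalled value could change sign and count as kept. The r of Ier2 with Arc in CeA, for example, went from 0.062 to -0.256 without the spike-in-rich libraries. With no filter on low counts, 1 member passed for dependence in CeA on PLX5622 (Arc), 1 in CeA averaged (Arc), 2 in mPFC averaged and 1 for diet in mPFC averaged (Nptx2); RLE scaling also gave 1 for diet in mPFC averaged. Without the libraries rich in spike-in RNA, 0 members passed for dependence in mPFC averaged, and 0 CeA and 1 mPFC relation to Arc passed. Leaving out each library in turn, members called ranged from 0 to 2 for dependence in mPFC averaged, from 0 to 1 for diet in mPFC averaged and from 7 to 8 across regions (CeA libraries left out only), and stayed at 0 in the other region-wise comparisons. With the mouse as a replicate block, 8 members passed across regions in control-diet non-dependent mice in place of 7, and no other count of members changed. In all, 3983 genes passed there in place of 6047. That fit held only the 15 mice with both regions, so fewer libraries entered it. Counts over all genes moved by over 1.5 times elsewhere too. With no filter, 59 genes passed for dependence in mPFC averaged in place of 27, 328 for diet in mPFC averaged in place of 1.14% of genes, 292 for diet in CeA averaged in place of 0.896% of genes, and 86 for dependence in CeA averaged in place of 3. Without the spike-in-rich libraries, 2589 passed across regions in PLX5622 dependent mice in place of 5235, 3938 in control-diet dependent mice in place of 6078, 61 for diet in CeA averaged, and 0 for dependence in CeA averaged in place of 3. The cause of these changes was not tested. Low counts (2 to 17 per library for Dusp5, 2 to 15 for Ier2 in CeA) limit what could be detected.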
